A study of Mus musculus with 6 samples.

Results

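Arginine metabolism was followed through 6 genes in leukocytes of the mouse spinal cord: Arg1, Arg2, Nos2, Slc7a2, Ass1 and Odc1. They were chosen by name from the 19449 genes of a single-cell count table of 38057 cells, and were read in each of the 16 clusters deposited with the table, in each library, and, for Arg1 and Nos2, together within single cells. The mice had experimental autoimmune encephalomyelitis (EAE), a model of multiple sclerosis, after adoptive transfer of IL-23-polarized CD4+ T cells specific for myelin oligodendrocyte glycoprotein (MOG) into C57BL/6 recipients. Per the study's methods the mice were wild-type C57BL/6 or CD45.1 congenic animals of both sexes, and the sex of the pooled animals is not given in the sources used here. CD45+ cells were sorted from the cords of young recipients (8 to 12 weeks) and middle-aged recipients (40 to 44 weeks) on day 6 and on day 10 after transfer. All 4 groups received the T cells, so none of the single-cell libraries is an untreated control. Each of the 4 groups is a single library from 4 pooled cords, so the difference between the ages on a given day has no replicate check. Microglia of naive young and naive middle-aged mice without transfer were sequenced in bulk, as 1 library per age.

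Arginine enters myeloid cells through cationic amino acid transporters such as the one encoded by Slc7a2, which is inducible in macrophages. The arginases Arg1 (cytosolic) and Arg2 (mitochondrial) split arginine into ornithine and urea, and ornithine decarboxylase (Odc1) turns ornithine into putrescine, the first polyamine. Inducible nitric oxide synthase (Nos2) converts the same substrate into nitric oxide and citrulline, and argininosuccinate synthase (Ass1) starts the way back from citrulline to arginine. In cultured mouse macrophages Nos2 is a textbook marker of classical activation and Arg1 of alternative activation.

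On GRCm38 (GENCODE vM21), Arg1 lies on chromosome 10 from 24915221 to 24927484 (minus strand) and Nos2 on chromosome 11 from 78920787 to 78960254. Slc7a2 spans chromosome 8 from 40862396 to 40922308 and Ass1 chromosome 2 from 31470207 to 31520672. Arg2 (79130777 to 79156301) and Odc1 (17544794 to 17551505) share chromosome 12, and these 5 genes lie on the plus strand.

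The libraries held 8315 to 10026 cells with a median of 4704 to 6196 unique molecular identifiers (UMIs, tags that count each captured transcript once) per cell. Of 37903 distinct barcodes, 154 (0.406%) occurred in more than 1 library. The table names no cell types. By marker lists, clusters 0, 3 and 6 were neutrophil-like, 1 and 5 monocyte/macrophage-like, 7 dendritic cell-like, 10 microglia-like, 2 T cell-like, 4 B cell-like and 9 NK-like. Cluster 0 had none of the neutrophil markers among its 10 leading genes, but its neutrophil markers summed to 38635 to 51724 counts per 1000000 UMIs (CPM). Cluster 8 was left unnamed. Its microglial markers led on day 6 (6035 CPM for young, 3941 CPM for middle-aged mice), but on day 10 its monocyte/macrophage markers summed to 25863 and 35609 CPM, up from 2783 and 2881 CPM. Arg1, Slc7a2 and Nos2 were themselves among the 10 leading genes of cluster 1, so their levels by cluster are a description and were not tested.

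The levels below are CPM of all cells of a cluster added up within a library, given in the order young day 6, middle-aged day 6, young day 10, middle-aged day 10. In bulk sums, fewer cells that hold a transcript and less transcript per cell cannot be told apart, and shares of cells with a UMI are therefore given after each cell was thinned to 2000 UMIs.

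**Figure D1:**
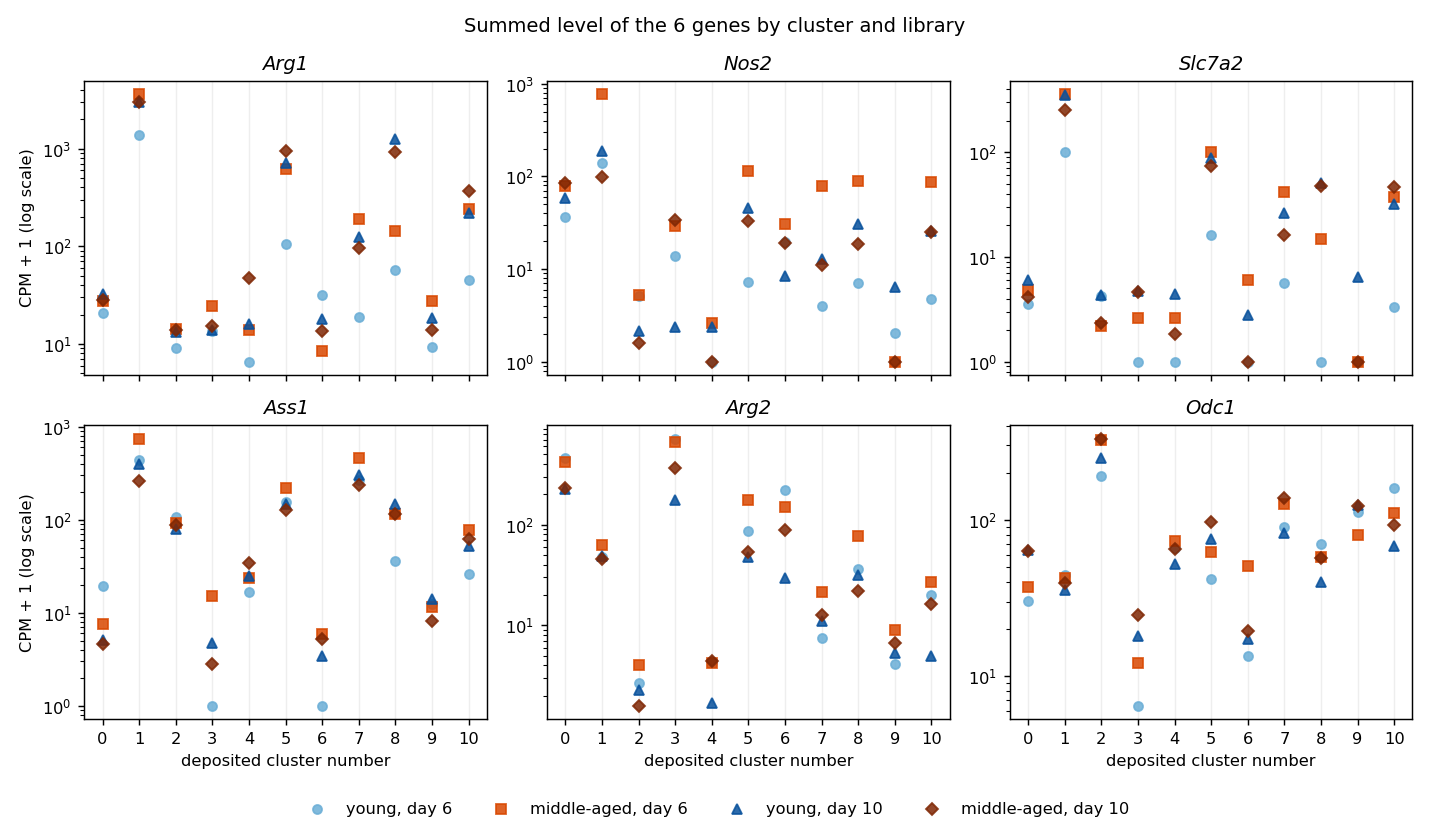
Summed level of each of the 6 genes (CPM + 1, log axis) in clusters 0 to 10, with 1 point per library and no replicates. Arg1, Nos2 and Slc7a2 stood highest in cluster 1, Arg2 in the neutrophil-like clusters 0 and 3 and Odc1 in the T cell-like cluster 2. In cluster 1 the young library of day 6 lay lowest for Arg1 (1389 CPM) and Slc7a2 (99.95 CPM).

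Arg1 was concentrated in the monocyte/macrophage-like cluster 1, which held 91.8% of its 289469 UMIs. Its level there was 1389, 3586, 2976 and 2992 CPM. The young library of day 6 was the low one, and the other 3 lay close together. The share of thinned cells with an Arg1 UMI followed the same order, at 39.6%, 77.6%, 78.4% and 74.4%. T cell-like cells, which should lack the gene, had an Arg1 UMI in 1.73% to 3.11% of thinned cells, and B cell-like cells in 1.10% to 5.73%. Cluster 5 came next with 104, 618, 716 and 935 CPM, followed by the unnamed cluster 8 with 56.8, 141, 1254 and 916 CPM. The levels of cluster 1 did not overlap those of either, whereas clusters 5 and 8 overlapped each other and the microglia-like cluster 10 (43.6, 239, 220.2 and 366 CPM). Medians over the 4 libraries were 2984, 667, 528 and 230 CPM in clusters 1, 5, 8 and 10. In cells with fewer than 2 lymphoid and fewer than 5 neutrophil UMIs they were 2451, 177, 515 and 52.0 CPM. Cluster 8 then stood above cluster 5. In cluster 10 the 10 cells with the most Arg1 UMIs held 65.3% to 87.3% of them, compared with 2.39% to 5.61% in cluster 1. Dendritic cell-like cluster 7 had 17.9, 191, 123 and 94.0 CPM. In neutrophil-like cluster 0 the share with Arg1 was 2.82% to 5.67% of thinned cells, a range that overlapped that of B cell-like cells, so it is not read as expression there.

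Nos2 was also highest in cluster 1, with 87.9% of its 34049 UMIs and a level of 139.8, 768, 188 and 96.9 CPM. Here the middle-aged library of day 6 stood alone above the other 3. Its share of thinned cells with a Nos2 UMI was 41.9%, compared with 9.94%, 17.7% and 11.2% in young day 6, young day 10 and middle-aged day 10 cells. Unlike Arg1, Nos2 was above background in neutrophil-like cluster 0, at 35.8, 78.4, 57.5 and 83.9 CPM and in 5.34%, 10.6%, 8.33% and 12.5% of thinned cells. T cell-like cells had a Nos2 UMI in 0.0424% to 0.548%. In clusters 5, 7, 8 and 10 the middle-aged day 6 library was the high one as well. Cluster 5 had 6.28, 114, 44.6 and 32.2 CPM, cluster 7 had 3.003, 78.8, 11.7 and 9.93 CPM, cluster 8 had 6.14, 87.6, 29.5 and 17.6 CPM, and cluster 10 had 3.78, 85.2, 25.0 and 24.1 CPM. The range of cluster 1 did not overlap that of cluster 0, and the ranges of clusters 0, 5, 8 and 10 overlapped.

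Slc7a2, the arginine transporter, followed Arg1 across clusters. Cluster 1 held 90.7% of its 28311 UMIs, at 99.95, 356, 352 and 251 CPM and in 11.1%, 34.6%, 38.3% and 29.4% of thinned cells. In cluster 5 the level was 15.1, 99.5, 86.5 and 73.4 CPM, a range that ended just under that of cluster 1. Slc7a2 was not detected in 249 young cells of cluster 8 on day 6, which allows a share of up to 1.20% of cells with a UMI, and its level in the other 3 libraries of that cluster was 13.8, 49.9 and 46.4 CPM.

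Ass1, the enzyme that starts the recycling of citrulline, was spread more widely. It reached 438, 744, 394 and 262 CPM in cluster 1 and 267, 456, 301 and 233 CPM in dendritic cell-like cluster 7, and these ranges overlapped. T cell-like cells held 105, 91.9, 77.9 and 86.4 CPM, close to the level of cluster 8 (35.3, 114, 147 and 115 CPM). In cluster 1 the middle-aged library of day 6 was again the highest, with a UMI in 67.1% of thinned cells compared with 36.2% to 49.1% in the others.

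Arg2, the mitochondrial arginase, belonged to the neutrophil-like clusters. Cluster 0 alone held 46.8% of its 18707 UMIs, at 457, 414, 227 and 228 CPM. In cluster 3 it was 716, 660, 177 and 362 CPM, and a UMI was found in 80.7%, 70.7%, 30.2% and 51.6% of thinned cells. Both libraries of day 6 lay above both of day 10 in each of these clusters. Cluster 1 had only 44.6 to 61.5 CPM, and T cell-like cells at most 3.06 CPM. Odc1, the first enzyme of polyamine synthesis, was highest outside the myeloid clusters. Of its 25376 UMIs, 47.9% were in the T cell-like cluster 2 (190.3, 325, 249 and 331 CPM). Among the myeloid clusters its level was highest in clusters 7 (81.9 to 137 CPM) and 10 (67.2 to 158 CPM), which overlapped, and in cluster 1 it stayed between 34.5 and 43.1 CPM.

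Across 52 sums of a cluster and a library with 50 or more cells, the genes most like Arg1 by Pearson's r of log2(CPM + 1) were Cfb (complement factor B, r = 0.92), Slc7a2 (0.91), Ms4a8a (0.90), Sash1 (0.89) and Anpep (aminopeptidase N, 0.89), among 5886 genes compared. Those most like Nos2 were Ly6i (0.87), Plin2 (0.86), Sod2 (0.85), Cstb (0.85) and Inhba (0.84). Arg1 led the list for Slc7a2, before Cfb (0.88) and Sash1 (0.84). Ass1 was most like Tspan31 (0.89), Psma7 (0.85) and Ece1 (0.85), Arg2 like Clec4d (0.98), Fbxl5 (0.96) and Clec4e (0.96), and Odc1 like Aebp2 (0.90), Sdf4 (0.88) and Plcg1 (0.87). Arg1 and Nos2 had an r of 0.66 with each other. Sums of 1 library share its depth and free RNA, so these values describe the table and were not tested.

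On day 6 the transcripts of Arg1, Nos2 and Ass1 were higher in middle-aged than in young recipients in clusters 1, 5, 7, 8 and 10, and so was Slc7a2 where both libraries held it. In cluster 1 the log2 ratio between the ages (middle-aged CPM divided by young CPM) was 1.37 for Arg1, 2.46 for Nos2, 1.83 for Slc7a2 and 0.77 for Ass1, where 1 is a 2-fold difference. The exact conditional binomial 95% intervals, which cover counting error only, were 1.35 to 1.39, 2.40 to 2.51, 1.76 to 1.90 and 0.73 to 0.80. Arg2 (0.39) was slightly higher and Odc1 (-0.06) was the same within its interval of -0.19 to 0.06. On day 10 the ratios of cluster 1 were near 0 or below it. The log2 ratio was 0.01 for Arg1 (-0.01 to 0.02), -0.96 for Nos2 (-1.03 to -0.89), -0.49 for Slc7a2 (-0.54 to -0.44) and -0.59 for Ass1 (-0.63 to -0.54). In other clusters Arg1 was still higher in middle-aged mice on day 10, by 0.73 in cluster 10 (0.60 to 0.87) and 0.38 in cluster 5 (0.32 to 0.45), and lower in clusters 7 (-0.39) and 8 (-0.45). Outside the neutrophil-like clusters, cells with fewer than 2 lymphoid and fewer than 5 neutrophil UMIs are called free of lymphoid and neutrophil transcripts. In such cells the day 10 ratio of Arg1 was 2.39 in cluster 10, 3.31 in cluster 7 and -1.75 in cluster 5. That of Nos2 in cluster 5 was 2.65. These ratios rest on few young cells. After thinning, 4 of 109 held Arg1 in cluster 10, 3 of 81 in cluster 7 and 3 of 37 in cluster 5. Nos2 was held by 1 of the 37.

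**Figure D2:**
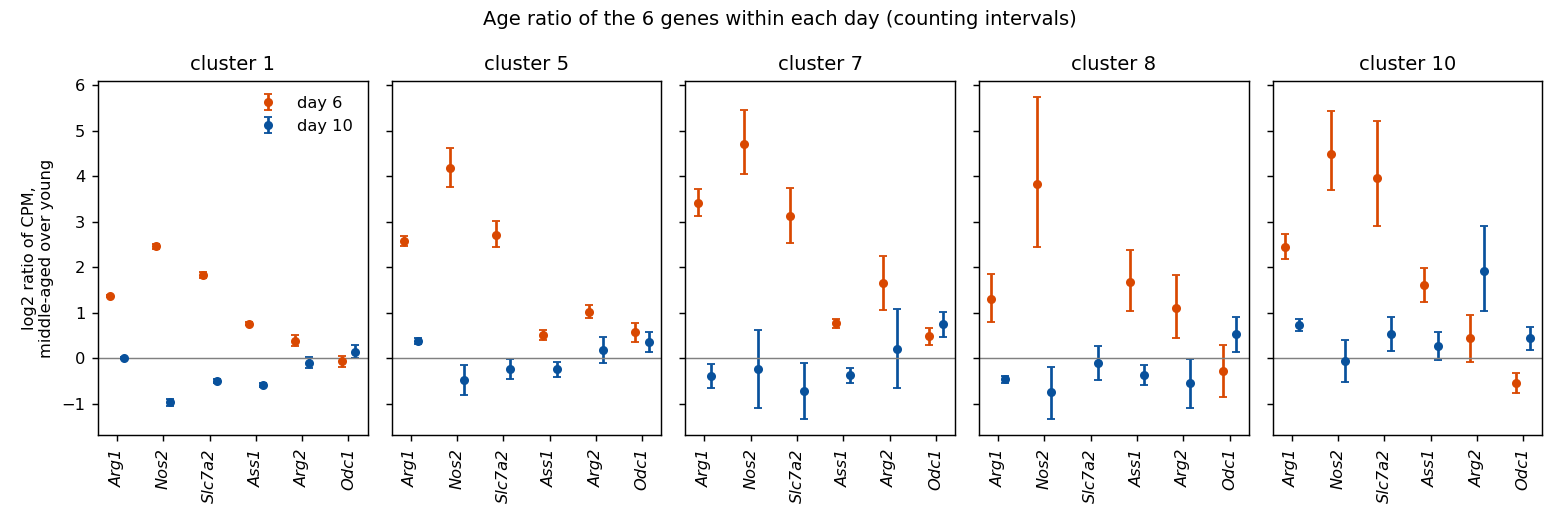
Middle-aged CPM divided by young CPM, as a log2 ratio, for the 6 genes in clusters 1, 5, 7, 8 and 10, on day 6 and on day 10, with exact 95% counting intervals and 1 library per age and day. Nos2 had the highest of the plotted ratios on day 6 in each of these clusters (2.46 in cluster 1 to 4.71 in cluster 7), and lay below 0 on day 10 in each, with intervals that included 0 in clusters 7 and 10. Slc7a2 in cluster 8 on day 6 has no point because its young library had no UMI.

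Ratios on day 6 were larger in clusters 5, 7 and 10, where both genes were low in young mice. In cluster 5 the log2 ratio was 2.57 (2.46 to 2.68) for Arg1 and 4.18 (3.76 to 4.63) for Nos2, in cluster 7 it was 3.42 (3.13 to 3.71) and 4.71 (4.05 to 5.45), and in cluster 10 it was 2.46 (2.19 to 2.72) and 4.49 (3.69 to 5.43). These values rest on few UMIs in the young library, 13 for Nos2 in cluster 10 and 20 in cluster 7. In cluster 5, cells free of lymphoid and neutrophil transcripts (523 of 817 young and 235 of 641 middle-aged cells) gave 2.55 for Arg1, but 2.37 for Nos2 and 1.60 for Slc7a2, down from 4.18 and 2.72. Such cells gave 5.72 for Nos2 in cluster 7 and 7.37 in cluster 10. After thinning, 0 of 401 such young cells of cluster 7 and 0 of 281 of cluster 10 held a Nos2 UMI. The young level behind both ratios was therefore near the floor. Counted among genes with 100 or more UMIs in the 2 libraries together, 3 of 6 members were at least 2-fold higher in middle-aged mice in cluster 1 (Arg1, Nos2, Slc7a2), where 1.45% of all such genes were. In cluster 5 it was 4 of 6 (these and Arg2, 1.52% of all genes) and in cluster 7 the same 4 of 6 (3.17%). In cluster 8 Arg1, Nos2, Ass1 and Arg2 passed of 5 (2.15%), though Arg2 was at -0.69 (-4.47 to 3.101) in cells free of lymphoid and neutrophil transcripts, and in cluster 10 Arg1, Nos2 and Ass1 of 5 (1.50%). On day 10 no member with 100 or more UMIs differed 2-fold in either direction in these clusters, beside 0.687% of genes in cluster 1. The neutrophil-like clusters differed from this. In cluster 0 on day 6 Nos2 was 2-fold higher and Ass1 2-fold lower, of 5 members (2.35% of genes in either direction). On day 10 Arg2, the only member with enough UMIs, was 2-fold higher in clusters 3 and 6 (6.70% and 3.29% of genes). None differed 2-fold in cluster 0 on day 10 or in clusters 3 and 6 on day 6. TMM scaling, which centres on genes that differ least, would raise the day 6 ratios of cluster 1 by 0.12. Neutrophil markers in cluster 1 summed to 4026 CPM in the young and 2836 CPM in the middle-aged library of day 6, and monocyte/macrophage markers to 25997 and 22254 CPM. Their part in the ratios was not tested.

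Whether the ages differed over both days was tested with edgeR on the 4 libraries with day as a term, which leaves 1 residual degree of freedom. Of 44 pairs of a member and a myeloid cluster that could be tested, 1 was called at an adjusted p below 0.05, and 0.301% of all genes were called over these clusters. The pair was Nos2 in neutrophil-like cluster 0, higher in middle-aged mice on both days (35.8 to 78.4 CPM on day 6 and 57.5 to 83.9 CPM on day 10). Its log2 fold change was 0.88 with a standard error of 0.16 and an adjusted p of 0.0499 in edgeR, where 0.208% of genes were called. The adjusted p ran from 3.43e-05 without a filter to 1.00 without the day term, and DESeq2 gave 0.29. At an unadjusted p below 0.05, 20 of the 44 pairs passed, 19 of them higher in middle-aged mice, beside 6.02% of all genes. Among these were Arg1 in cluster 1 (log2 fold change 0.74, edgeR adjusted p 1.00), in cluster 5 (1.50, 0.067) and in cluster 10 (1.58, 0.22), so the difference over both days was not established for Arg1. The other 29 genes of arginine, nitric oxide and polyamine metabolism that could be tested gave 0 calls for age among 179 pairs in edgeR, with 12 at an unadjusted p below 0.05. In DESeq2, 0 of the member pairs were called.

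Between day 6 and day 10, 14 of the 44 pairs were called in the same edgeR fit, 5 higher and 9 lower on day 10, beside 21.5% of all genes. Arg2 fell in 5 clusters, by 1.69 on the log2 scale in cluster 0 (adjusted p 9.46e-08, 54.4% of genes called), by 1.69 in cluster 3 (0.0019, 17.8%), by 1.60 in cluster 5 (4.89e-05, 25.5%), by 2.04 in cluster 6 (0.00039, 7.79%) and by 1.23 in cluster 10 (0.044, 6.64%). In cluster 10 the median Arg2 level over the 4 libraries was only 17.2 CPM. In its cells free of lymphoid and neutrophil transcripts the median was 2.87 CPM. The same medians of cluster 5 were 69.3 and 89.7 CPM. Ass1 fell by 2.28 in cluster 0 (adjusted p 3.18e-05), by 0.99 in cluster 1 (0.022, 29.9%) and by 0.70 in cluster 5 (0.016), and rose by 1.09 in cluster 8 (0.023, 13.4%). With these shares of all genes called, a member's call in cluster 0 says little about the member. In cluster 7 (6.48% of genes) no member was called. TMM scaling, which the fit uses, lowers day 10 against day 6 by 0.73 and 0.79 in cluster 0 relative to plain CPM. Nos2 in cluster 0 shows this. It was called as lower (log2 fold change -0.40, edgeR adjusted p 0.04996), whereas its CPM was higher on day 10, by a log2 ratio of 0.69 in young and 0.10 in middle-aged mice, so its direction depends on the scaling.

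Arg1 rose from day 6 to day 10 in clusters 5, 8 and 10, with edgeR log2 fold changes of 1.39, 3.74 and 1.59 and adjusted p values of 0.0085, 1.25e-08 and 0.016. Slc7a2 rose with it in cluster 8 (2.76, edgeR adjusted p 0.0002). In cluster 8 the change was from 56.8 to 1254 CPM in young and from 141 to 916 CPM in middle-aged mice, and the share of thinned cells with Arg1 went from 3.03% and 7.69% to 42.9% and 33.2%. The monocyte/macrophage markers of cluster 8 rose alongside, as given above, and among them Lyz2 went from 555 and 515 CPM to 8543 and 12475 CPM. In cluster 10 these markers went from 4230 and 4010 CPM to 16594 and 20448 CPM. Their part in the rise was not tested. In cells free of lymphoid and neutrophil transcripts the log2 fold change of cluster 8 was 3.56. In cluster 10 the fold change in such cells was -0.70 (edgeR adjusted p 0.11), so the rise there did not hold. In cluster 5, such cells gave 1.40 with an adjusted p of 0.36 in edgeR, from as few as 37 cells in the young library of day 10. Summed T cell markers of cluster 5 went from 339 and 455 CPM on day 6 to 1053 and 1491 CPM on day 10, and its neutrophil markers from 7187 and 5724 CPM to 16421 and 6572 CPM.

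Of the 35 other genes listed for the pathway, 29 were tested in 179 pairs, and the day fit in edgeR called 16 pairs as higher and 38 as lower on day 10, in 22 genes, beside the 21.5% of all genes called over these clusters. Cluster 0, where 54.4% of genes were called, gave 7 of the higher and 9 of the lower pairs. Smox, the oxidase that turns spermine back into spermidine, was lower on day 10 in 8 of 8 myeloid clusters, by 1.11 (cluster 10) to 3.55 (cluster 3) on the log2 scale. In cluster 1 it fell by 2.63 with an adjusted p of 1.50e-06 in edgeR. Gch1, which makes the cofactor that Nos2 needs, was lower in 5 of 8 (by 2.01 in cluster 5 and 1.47 in cluster 1). Slc3a2, the heavy chain of several amino acid transporters, and Eif5a, the factor modified by spermidine, were lower in 4 of 8 each. Azin1 and Gatm were lower in 3 clusters, Slc7a1, Sat1 and Srm in 2, and Aldh18a1, Ddah2 and Oaz2 in 1. In cluster 0 the calls of Eif5a (-0.50), Oaz2 (-0.62) and Azin1 (-0.73) were no larger than the shift of -0.73 and -0.79 from scaling, so their direction there depends on it as that of Nos2 does. In the other direction Paox, a polyamine oxidase, was higher in 4 of 5 clusters (by 1.00 to 1.52), Qdpr in 3, Spr in 2, and Amd1, Asl, Dhps, Dohh and Gamt in 1. Pts and Slc7a6 were higher in 1 cluster and lower in another. The fall of Smox was larger than the shift from scaling (at most 0.79) in each of the 8 clusters.

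Arg1 and Nos2 transcripts were found in the same cells. In cluster 1, 7.90%, 37.3%, 14.3% and 9.67% of thinned cells held both. Most cells with Nos2 also had Arg1, at 79.5%, 88.9%, 81.1% and 86.2%. The reverse was not so, since 20.0%, 48.0%, 18.3% and 13% of the cells with Arg1 had Nos2. If the 2 transcripts had been spread over cells independently, 92.7, 891, 298 and 193 cells with both would be found, and 186, 1021, 308 and 224 were. The log2 odds ratio of having both was 2.82, 1.82, 0.28 and 1.19, above 0 in 4 of 4 libraries, with a median of 1.50, and under other depths, thresholds and filters the median was 1.18 to 1.64. The 2 libraries of day 10 moved most. The young one was at 0.09 in cells free of lymphoid and neutrophil transcripts (57 cells with both, 56.0 under independence) and at 1.06 unthinned, and the middle-aged one at 0.68 and 0.87. Cells of a library are not replicates, so no test was made.

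**Figure D3:**
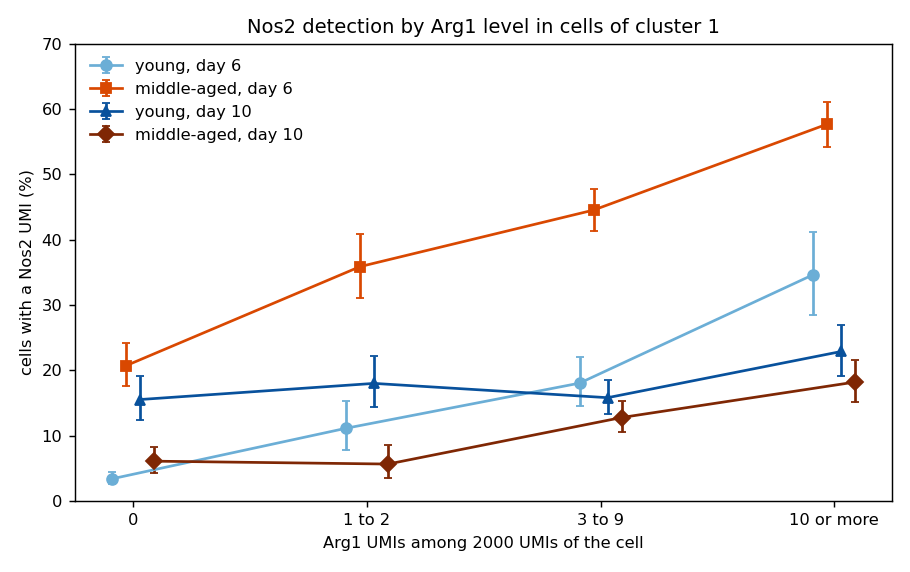
Share of cluster 1 cells with a Nos2 UMI (vertical axis, percent, exact binomial 95% intervals for counting error) by the number of Arg1 UMIs among 2000 UMIs of the cell, 1 line per library. In the middle-aged day 6 library the share went from 20.7% of cells without Arg1 to 57.7% of cells with 10 or more Arg1 UMIs, and in the young day 10 library from 15.5% to 22.9%.

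Nos2 was detected more often the more Arg1 a cell held. On day 6 the share of cells with Nos2 in the classes with 0, 1 to 2, 3 to 9 and 10 or more Arg1 UMIs was 3.38%, 11.1%, 18.0% and 34.7% in young and 20.7%, 35.9%, 44.6% and 57.7% in middle-aged mice. On day 10 it was 15.5%, 18.0%, 15.8% and 22.9% in young and 6.07%, 5.63%, 12.8% and 18.2% in middle-aged mice. The share rose over all 4 classes in both libraries of day 6. On day 10 the intervals of the 3 lower classes overlapped in young mice, and those of the 2 lower classes in middle-aged mice. The middle-aged day 6 library had the largest share in each class, though without Arg1 its interval overlapped that of young day 10 cells. Unthinned cells split by depth into 3 classes gave log2 odds ratios of 1.82 to 2.82 in young and 1.35 to 1.91 in middle-aged cells of day 6, and of 0.43 to 1.05 and 0.08 to 1.26 on day 10. In cluster 5 the log2 odds ratio was 4.21, 2.59, 1.89 and 1.28, from 4, 35, 11 and 8 cells with both. Thinned to 1000 UMIs, its middle-aged day 10 value was -0.01. In cells free of lymphoid and neutrophil transcripts it was 4.84 and 1.99 on day 6, from 2 and 4 cells with both. On day 10, 0 of 37 young and 0 of 72 middle-aged such cells held both. Independence would give 0.081 and 0.42 cells, so these are too few to judge. In neutrophil-like cluster 0, where the share with Arg1 overlapped that of B cell-like cells, the log2 odds ratio was -0.13, 0.00, 0.71 and -0.44.

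The other members were then compared between cells of cluster 1 that held a UMI of Arg1 only, Nos2 only, both or neither, with Arg1 and Nos2 left out of the total. Slc7a2 was highest in cells that had Nos2. Its level in cells with neither was 15.6, 57.4, 132 and 104 CPM, and in Arg1-only cells 63.4, 98.5, 224 and 187 CPM. In Nos2-only cells it was 95.7, 179.5, 679 and 428 CPM, and in cells with both 417, 568, 569 and 451 CPM. Ass1 followed the same division, at 393, 557, 288 and 219 CPM in Arg1-only, 588, 717, 595 and 405 CPM in Nos2-only and 799.7, 898.5, 568 and 373 CPM in cells with both. In each library the Arg1-only cells lay below the Nos2-only cells and below the cells with both, for Slc7a2 and for Ass1. Arg2 was 42.9 to 47.9 CPM in Arg1-only, 46.3 to 68.0 CPM in Nos2-only and 54.3 to 69.5 CPM in cells with both. Odc1 did not separate the classes, at 35.2 to 49.96, 21.6 to 46.3 and 35.2 to 42.5 CPM.

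**Figure D4:**
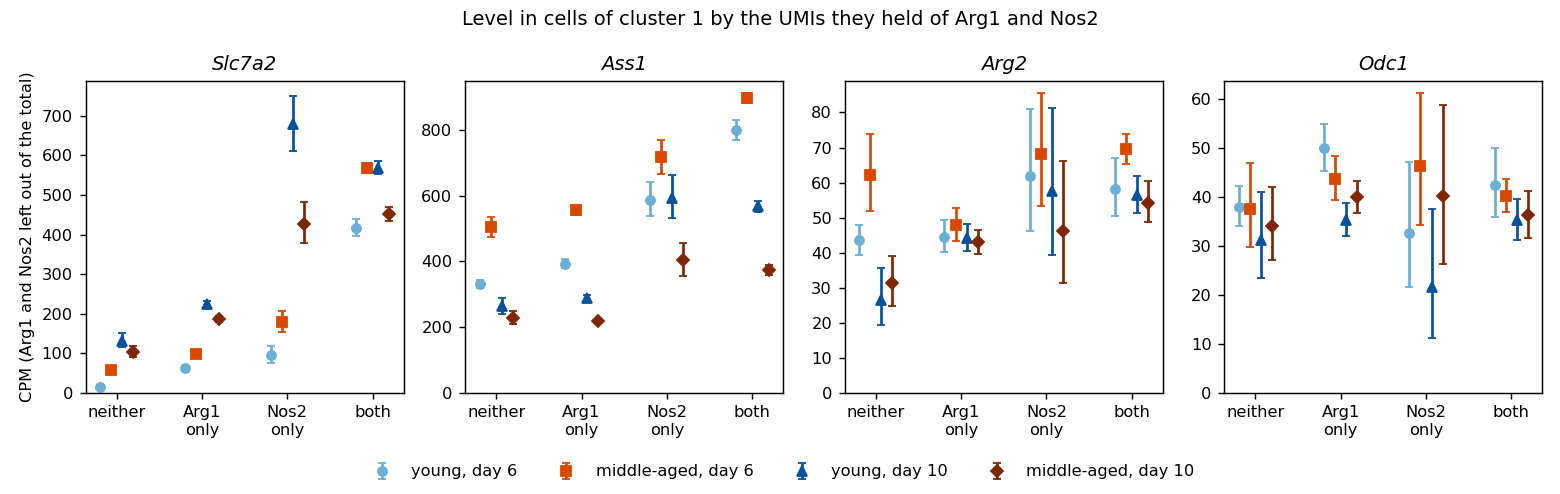
Level of Slc7a2, Ass1, Arg2 and Odc1 (CPM, with Arg1 and Nos2 left out of the total) in cluster 1 cells that held neither Arg1 nor Nos2, Arg1 only, Nos2 only or both, 1 point per library with exact Poisson 95% intervals for counting error. For Slc7a2 and Ass1 the Arg1-only point of each library lay below its Nos2-only point and its point for both.

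The difference between Arg1-only and Nos2-only cells was tested with edgeR with the library as a block, 4 libraries on each side. There were 851, 945, 1188 and 1448 Arg1-only cells and 90, 121, 59 and 59 Nos2-only cells, with median depths of 8456 to 10131 and 7933 to 10578 UMIs. Slc7a2 was lower in Arg1-only cells by 1.20 on the log2 scale (SE 0.13, adjusted p 2.74e-06), Ass1 by 0.82 (SE 0.10, 2.01e-05) and Arg2 by 0.50 (SE 0.14, 0.033), and Odc1 did not pass (0.13, SE 0.17, adjusted p 0.72). In all, 975 of 9958 genes (9.79%) were called, 324 higher and 651 lower in Arg1-only cells. The count was 618, 602 and 644 without the young day 6, the middle-aged day 6 and the middle-aged day 10 library. Against cells with both, a comparison added after the data were seen (median depths of 8820 to 10887 UMIs), the log2 fold changes in edgeR were -1.998 for Slc7a2 (adjusted p 0.00064), -0.93 for Ass1 (4.75e-05) and -0.47 for Arg2 (0.0021), with 1392 of 10719 genes called (13%). Without the library block edgeR called 0 genes (944 at an unadjusted p below 0.05), while DESeq2 with the block called 160 higher and 563 lower, and Arg2 turned to 0.46 (adjusted p 0.45) when cells with lymphoid or neutrophil transcripts were left out. Of 12 polyamine genes tested, Smox was lower (-0.79) and Srm, which makes spermidine, higher (1.03) in Arg1-only cells. Gch1 was lower (-0.49) as 1 of 6 genes around nitric oxide, and Slc3a2 (-0.35) as 1 of 4 transporters. Srm did not pass against cells with both (0.29).

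The genes that set Arg1-only cells apart most were named by size. Higher in Arg1-only than in Nos2-only cells, in 4 of 4 libraries, were Tmem37 (log2 fold change 2.55), Ccl24 (eotaxin-2, 1.86), Spp1 (osteopontin, 1.67), Rnase4 (1.65), the monocyte chemokine Ccl7 (1.48), the lipid receptor Trem2 (1.43), Lmna (1.40) and the chemokine Ccl12 (1.32). Lower were Mir155hg, the host transcript of miR-155 (-3.55), the chemokine Ccl17 (-3.09), Procr (-2.94), Chil1 (-2.28), the T cell-attracting chemokines Cxcl9 (-1.95) and Ccl5 (-1.87), the receptor Clec4e (-1.76) and Olr1 (-1.61). Cxcl9 averaged 876 CPM in Arg1-only and 2863 CPM in Nos2-only cells, and Trem2 averaged 308 and 113 CPM. Against cells with both, Trem2 (0.52) and Cxcl9 (-0.81) kept their direction and passed, while Ccl24 turned to -1.30 and Spp1 was at -0.08.

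**Figure D5:**
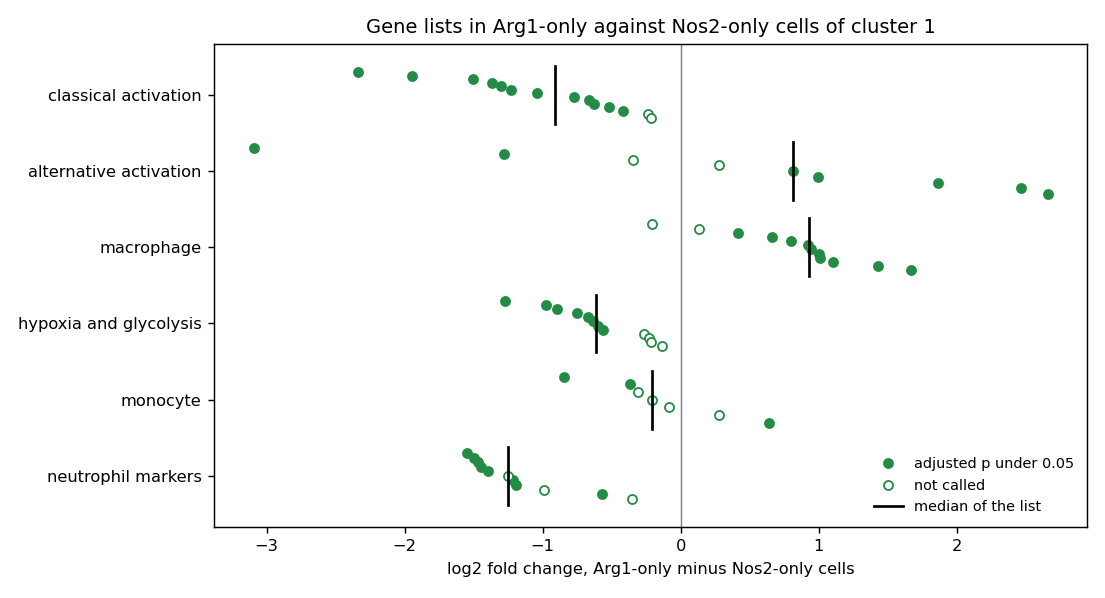
Log2 fold change of the genes of 6 lists between Arg1-only and Nos2-only cells of cluster 1, 1 point per gene, filled where the edgeR adjusted p was below 0.05, with the median of each list as a bar. Of the classical activation list 12 of 14 genes were lower in Arg1-only cells, and of the macrophage list 10 of 12 were higher.

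Of the classical activation genes 12 of 14 tested were lower in Arg1-only cells, with a median log2 fold change of -0.91, beside 0.02 over all genes. They included Il12a (-2.34), a subunit of IL-12, Acod1 (-1.37), which makes itaconate, Ptgs2 (-1.30) and Tnf (-1.23). Il6 (-0.21) and Irf8 (-0.23) did not pass. The alternative activation list was mixed. Of 9 genes tested, Mrc1 (2.66), Clec10a (2.47), Ccl24, Fn1 (1.00) and Stab1 (0.81) were higher and Ccl17 and Pdcd1lg2 (-1.28) were lower, and against cells with both 3 were higher and 5 lower of 10. Mrc1 stayed higher there (1.22), Chil3 was lower (-0.51), and Fn1 was at -0.11 and did not pass.

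Macrophage genes were higher in Arg1-only cells in 10 of 12 cases, with a median of 0.93, among them the complement genes C1qa (1.01), C1qb (0.92) and C1qc (0.95), Mertk (1.10) and Apoe (0.66). Gpnmb (-0.21) and Cd68 (0.13) did not pass. Against cells with both, 7 of 12 were higher. Of 7 monocyte genes Ccr2 was higher (0.64), Plac8 (-0.84) and Hp (-0.37) were lower, and Ly6c2 (-0.09) did not pass. Against cells with both, Plac8 was at 0.04 and Hp at -0.01, and neither passed. Genes of hypoxia and glycolysis were lower in 8 of 12 cases, such as Egln3 (-1.27), Ero1l (-0.97), Pfkp (-0.89), Hk2 (-0.75) and Hif1a (-0.60), and in 12 of 12 against cells with both.

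Markers of other cell types moved with these classes. Neutrophil markers summed to 3747, 2826, 5601 and 1700 CPM in Arg1-only cells, to 11318, 3204, 15188 and 7281 CPM in Nos2-only cells and to 3660, 2657, 4486 and 2083 CPM in cells with both, so the excess lay in Nos2-only cells. Of 11 neutrophil markers 8 were lower in Arg1-only than in Nos2-only cells. Leaving out cells with lymphoid or neutrophil transcripts selects cells on these same markers, so a smaller difference of the markers was built in. The median of the 5 still tested was then -0.16, and that of all 11 before was -1.25. In the cells that were kept, the classical activation list had 10 of 14 genes lower and the macrophage list 10 of 12 higher. Of 11 monocyte/macrophage markers 8 were higher and 1 lower in Arg1-only cells. The medians of the T, B and dividing cell lists were -0.34, -0.16 and -0.01, with no call. Of 4 dendritic markers tested, Itgax (-1.20), Clec9a (-1.45) and Ccr7 (-2.33) were lower in Arg1-only cells. Against cells with both, Itgax (-1.12) and Clec9a (-1.48) stayed lower and passed, while Ccr7 was at -0.03 and did not pass.

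In neutrophil-like cluster 0 the same comparison called 13 of 4408 genes (0.295%), 1 higher and 12 lower in Arg1-only cells. Ptpn22 was the higher one (1.14). The lower genes named by the same rule were AW112010 (-1.44), the hypoxia genes Ero1l (-1.04), Hilpda (-0.99) and Bnip3 (-0.98), Ccl5 (-1.01), Ly6i (-0.99), Pdcd1lg2 (-0.92) and Ralgds (-0.82). Since the share of cells with Arg1 in cluster 0 overlapped that of B cell-like cells, Arg1-only cells there are not cells shown to express Arg1. Without the young library of day 6 the comparison called 5 genes. In the remaining 6 myeloid clusters a class had as few as 1 to 10 cells in a library, and no comparison was fitted.

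Naive microglia, sequenced in bulk, held almost no Arg1 (17 reads in young and 21 in middle-aged mice, of 79373420 and 76293436 reads on genes), Nos2 (27 and 20) or Arg2 (14 and 10). Their microglial markers summed to 31046 and 29171 CPM. Slc7a2 was at 461 and 88 reads, a log2 ratio of -2.33 (exact conditional binomial 95% interval -2.68 to -2.0), and Ass1 at 129 and 93 reads (-0.42, -0.82 to -0.02). Odc1 was the member with the highest level, at 55.6 CPM in the young and 81.95 CPM in the middle-aged library (0.56, 0.50 to 0.62). At least 2-fold differences were found in 163 higher (1.10%) and 1022 lower genes (6.90%) of 14821 with 100 or more reads. Endothelial markers summed to 446 CPM in the young and 131 CPM in the middle-aged library, lower in 9 of 9 genes and none at 0, and their part in the difference of Slc7a2 was not tested. Per the study the bulk microglia were sorted as CD45int CD11b+ cells.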

How the data were processed

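Single-cell libraries were prepared from CD45+ spinal cord cells by the authors with 10x v3 chemistry and, per the labels, processed with bcl2fastq and Cell Ranger 3.1.0 on mm10; the deposited values are UMI counts per gene and cell for filtered cells, with a cluster number per cell from Seurat. For the bulk libraries the authors deposited read counts per gene (fastp, HISAT2 and featureCounts in the study's methods), whose overlapping genes cannot be told apart without strand. The 6 genes and all gene lists were chosen with earlier results of these data known.

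UMIs were summed by cluster and library and divided by all UMIs of the sum. Intervals are exact Poisson, binomial or conditional binomial 95% intervals and cover counting error only. A count of 0 was read as at most 3 counts. For shares, each cell was thinned to 2000 UMIs and shallower cells were left out. Age and day were fitted to the 4 libraries, and classes of cells to 4 libraries with 2 sums each and library as a block, with edgeR 4.0.16 quasi-likelihood tests in R 4.3.3, TMM scaling, genes with 10 or more counts in at least 2 sums (4 for classes) and Benjamini-Hochberg adjustment over all genes of a cluster. In the class fits both classes came from the same libraries, which is where the pairing comes from. The fits were tested on simulated data. Named beside members and called pathway genes were, in each class fit, the 8 largest changes each way with adjusted p below 0.05, 1 direction in 4 of 4 libraries and 50 CPM in 1 class, and the genes most correlated with a member. Alternatives were RLE scaling, no filter, DESeq2 1.42.0, no second term or block, removal of mitochondrial and ribosomal genes, each library left out, thinning to 1000 UMIs or none, 2 or more UMIs per class, and cells with fewer than 2 lymphoid and 5 neutrophil UMIs (20420 cells). Doublets were not called. The comparison with cells holding both transcripts and the endothelial list were chosen after seeing the data. Gene places are from GENCODE vM21 on GRCm38.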

Additional observations from a re-analysis of the deposited data

Results flagged for a closer look

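In 15 of 48 pairs of a member and a myeloid cluster the log2 ratio between the ages (middle-aged CPM divided by young CPM) had opposite signs on day 6 and day 10, with 13 of the 15 higher in middle-aged mice on day 6. Each value rests on 1 library per age and day, and the difference between the days was not tested. In cluster 1 the ratios on day 6 and day 10 were 2.46 and -0.96 for Nos2, 1.83 and -0.49 for Slc7a2, and 0.77 and -0.59 for Ass1. In cluster 5 they were 4.18 and -0.47 for Nos2, 2.72 and -0.24 for Slc7a2, and 0.52 and -0.24 for Ass1. In the neutrophil-like cluster 6 Arg2 went the other way, from -0.56 to 1.62. In the dendritic cell-like cluster 7 the ratios were 3.42 and -0.39 for Arg1, 3.12 and -0.72 for Slc7a2, and 0.77 and -0.37 for Ass1. In cluster 8 they were 1.31 and -0.45 for Arg1, 3.83 and -0.75 for Nos2, 1.69 and -0.36 for Ass1, and 1.11 and -0.54 for Arg2. In the microglia-like cluster 10 Odc1 went from -0.53 to 0.45.

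When cells with lymphoid or neutrophil transcripts were left out, 10 of the 15 pairs kept both signs, among them Nos2, Slc7a2 and Ass1 in cluster 1. The other 5 did not, and in clusters 5 and 7 few cells were left (37 and 88) in the young day 10 library. On day 6 and day 10 Nos2 in cluster 5 was at 2.37 and 2.65, Slc7a2 in cluster 5 at 1.60 and 0.42, Arg1 in cluster 7 at 3.42 and 3.31, Slc7a2 in cluster 7 at 3.37 and 1.13, and Arg2 in cluster 8 at -0.69 and -0.96.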

How the results depend on the processing

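The age fit called 1 member pair, and 2 with RLE scaling, 15 without a filter, 7 without cells that held lymphoid or neutrophil transcripts, and 0 without mitochondrial and ribosomal genes, without the day term and with DESeq2. The day fit called 14, and 7 without the age term and 7 with DESeq2, each of which was among the 14. With RLE scaling it called 17, which held all 14, and without a filter 16, of which 12 were among the 14. Without cells that held lymphoid or neutrophil transcripts it called 12, and only 8 of these were among the 14. Without mitochondrial and ribosomal genes it called 11, with 10 among the 14. Leaving out 1 library leaves these fits no residual degree of freedom, so such values have no test, and no pairing beyond the term for the other factor was possible. In cluster 1 the comparison of Arg1-only with Nos2-only cells called 975 genes, and 0 with no replicate block for the library, 495 in cells without lymphoid or neutrophil transcripts and 602 to 822 with 1 library left out. In cluster 0 it called 13, and 61 without a filter, 0 with no block, 3 with 2 or more UMIs per class and 1 against cells with both. The count there was 32 in cells with fewer than 2 lymphoid UMIs and 5 to 16 with 1 library left out. The median share of cluster 1 cells with Nos2 was 14.5% thinned and 30.6% unthinned. Directions turned for Arg1 in cluster 10 between the days (-0.70) and for Arg2 in cluster 1 (0.46) without cells that held lymphoid or neutrophil transcripts, and against cells with both for Ccl24 (-1.30), Spp1 (-0.078), Fn1 (-0.11) and Plac8 (0.04), among the genes named. The cause was not tested for any of these. Odc1 was highest in cluster 15 instead of cluster 2 on the mean natural log scale. Of 83 further values for called day pairs 58 kept their call, and of 211 for genes of the class fits 159 did.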

Other observations

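In naive bulk microglia, other synthases differed between the 2 libraries as well. Nos1 was at 1155 reads in young and 193 in middle-aged mice (log2 ratio -2.52), and Nos3, the endothelial form, at 869 and 258 (-1.70). Pycr1, an enzyme of proline synthesis, was at 141 and 256 reads (0.92). There was 1 library per age, and 6.90% of genes with 100 or more reads were at least 2-fold lower in the middle-aged one. Endothelial markers summed to 446 CPM in the young and 131 CPM in the middle-aged library. Their part in the differences of Nos1 and Nos3 was not tested.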
